A study of Bos taurus with 5 samples.

Results

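Leukocytes from the peripheral blood of crossbred cattle with equal shares of 2 breeds were set against those of the purebred populations. The 4 libraries of this comparison, of 5 in the series, were chosen by population label. N and H are the purebred populations. 50CSN descends from a native Iranian sire and a Holstein dam, and 50CSH from a Holstein sire and a native Iranian dam, so each carries 50 percent of either breed. The labels call N and H purebred without spelling out the letters, and they give no age, sex or number of animals per library. Each population has 1 library. No genetic alteration or treatment is given for any population. The crossbred library with 75 percent Holstein and 25 percent native ancestry, 75C, entered no comparison, and its values are printed only beside those of the other libraries. White cells were obtained from a buffy coat after red cell lysis, and polyadenylated RNA was sequenced. Of 31898 assembled loci, 13841 (43.4 percent) averaged 1 FPKM or more over these 4 libraries and were kept. FPKM is a count of sequenced fragments corrected for transcript length and for the size of the library, and the value of a locus is the sum over its transcripts. The kept locus nearest to that limit had a mean of 1.00006 FPKM, and the nearest locus left out had 0.99991 FPKM.

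Blood leukocytes are a mixture of neutrophils, lymphocytes, monocytes and rarer types, whose proportions set much of the transcript profile of a blood sample. In a cross of 2 breeds, a gene whose alleles act additively is transcribed at the mean of the parental levels, called the mid-parent level. Levels near one parent are called dominant, and levels can also lie outside the parental range. Heterosis is the superiority of crossbred animals in traits such as growth, fertility or disease resistance. A transcript level outside the parental range does not measure it. Reciprocal crosses share their autosomal make-up and differ in the breed that gave the mitochondria, the imprinted alleles and, in males, the sex chromosomes.

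The mid-parent level was taken here as the mean of N and H on the log2(FPKM + 1) scale, which makes the changes of low loci look smaller than they are. Where N and H differ, this level lies below the one taken from their mean FPKM. Loci are identified by the Ensembl transcript ID in the deposited table and by position. Of 31460 such IDs 0 were paired with a gene symbol, so no locus is named by its gene, and the sources used here name no genome build. Marker genes of leukocyte types could not be read either, and the labelled cell type was not checked. In these bulk samples, fewer cells of a type and less RNA per cell cannot be told apart. Kept loci numbered 11628 with an Ensembl ID and 2213 without. A locus printed as listed at 0 may be a failed estimate: 191 kept loci had a listed 0 in some library of the 4, 52 in N, 101 in H, 89 in 50CSN and 100 in 50CSH. The summed FPKM was 735252 in N and 733855 in H, against 852903 in 50CSN and 789089 in 50CSH, so it was higher in both crosses. What part this had in the deviations was not tested. The depth of the libraries is not given, and low values at loci with 1 transcript put it relative to H at roughly 1.19 in N, 1.16 in 50CSN and 1.02 in 50CSH. The labels name no sequencing batch or date. Separate animals or cultures are not stated, and p-values measure only the spread among these 4 libraries, each of another population.

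Most loci of both crosses stayed close to the mid-parent level. N and H were at least 2-fold apart at 3.4 percent of loci. Elsewhere the mid-parent level was itself close to both purebreds, so nearness to it does not separate additive from dominant loci. In 50CSN, 60.1 percent of loci lay within 1.25-fold of it, in 50CSH 60.8 percent did, and at 6560 loci (47.4 percent) both crosses did. At 12819 loci (92.6 percent) both crosses lay within 2-fold. The middle 50 percent of loci had a mean deviation of the crosses between -0.28 and 0.20 on the log2 scale, with a median of -0.02. The median deviation was -0.03 in 50CSN and -0.01 in 50CSH. Loci far from the mid-parent level were mostly low ones in the crosses. In 50CSN, 484 loci were at least 2-fold below the mid-parent level (3.5 percent of those kept) and 220 at least 2-fold above it (1.59 percent). In 50CSH, 545 were below (3.94 percent) and 169 above (1.22 percent). Quantile normalization, which gives all libraries one distribution of values, left 419 below and 247 above in 50CSN, and 443 below and 216 above in 50CSH. Both crosses were at least 2-fold below the mid-parent level at 307 loci and at least 2-fold above it at 56. At 33 loci the crosses deviated at least 2-fold in opposite directions, 26 of them with a listed 0 in some library. The crosses share N and H in these deviations, so a likeness between them is no independent result.

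**Figure D1:**
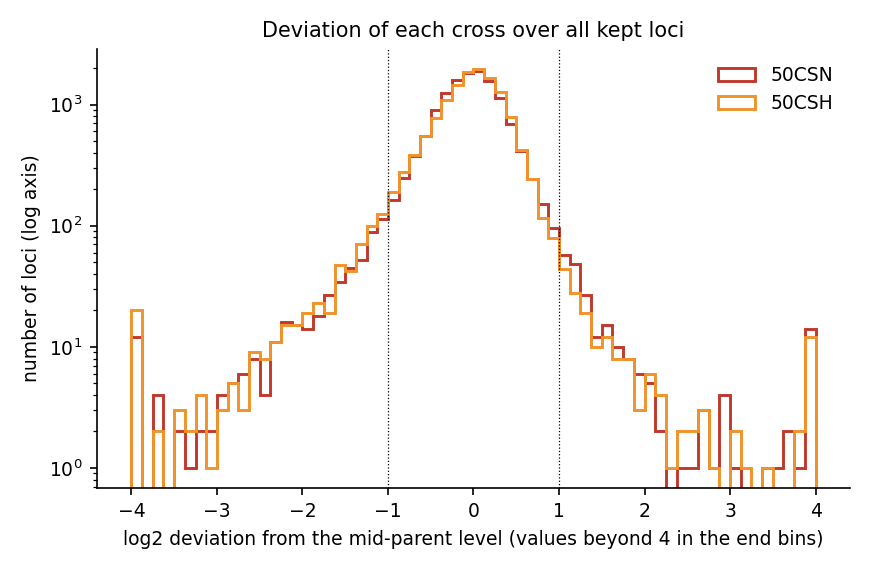
Number of loci (log axis) by log2 deviation from the mid-parent level, as 1 outline for each cross, over the 13841 kept loci. Dotted lines stand at 2-fold, and both outlines reach higher on the left of them, with 484 loci of 50CSN and 545 of 50CSH beyond 2-fold below against 220 and 169 above.

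Loci outside the range of both purebreds in both crosses were counted next, since the true level of an additive locus lies inside that of its parents. The measured range rests on 1 library for each purebred, and N and H were at least 2-fold apart at 3.4 percent of loci. An additive locus can thus fall outside it through the spread of single libraries, and the counts alone do not show a departure from additivity. Both crosses lay below both purebreds at 4515 loci (32.6 percent) and above both at 3721 (26.9 percent). Most of these differences were small, and their balance followed the scaling. After median-of-ratios scaling, which sets the median ratio between libraries to 1, 4179 loci lay below and 4126 above, and after quantile normalization 3726 lay below and 4639 above. The scalings moved the median deviation of all loci from -0.02 to 0.00 and to 0.04. With a difference of at least 2-fold between the means of the groups, the balance was uneven under every scaling run. Both crosses lay below both purebreds, with group means at least 2-fold apart, at 379 loci (2.74 percent), and above both at 96 (0.694 percent). Such loci are called 2-fold lower and 2-fold higher from here on, and a single cross can be less than 2-fold from a single purebred. The split was 355 and 105 after median-of-ratios scaling and 320 and 124 after quantile normalization. A change of pseudocount from 1 to 0.1 gave 665 below and 186 above. With a library left out, fewer values have to lie outside the range, and the counts were 469 below and 190 above without N, 529 and 172 without H, 491 and 153 without 50CSN, and 434 and 199 without 50CSH.

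**Figure D2:**
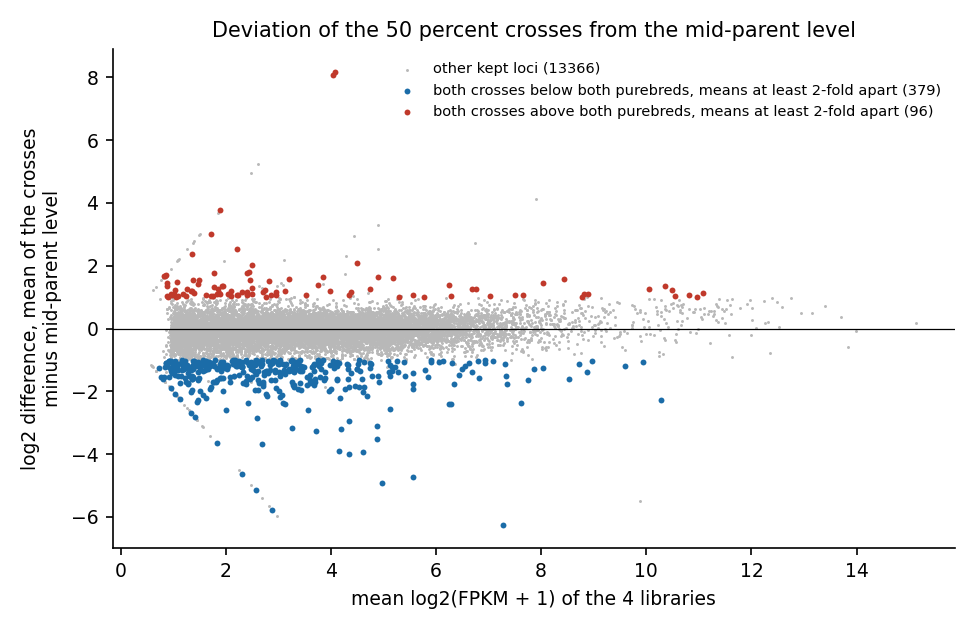
Log2 difference between the mean of 50CSN and 50CSH and the mid-parent level, against the mean log2(FPKM + 1) of the 4 libraries, with 1 point for each kept locus. Blue points are the 379 loci with both crosses below both purebreds and group means at least 2-fold apart, red points the 96 with both crosses above and the same gap, and the slanted line of points at the lower left holds loci listed at 0 in both crosses.

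At the 379 lower loci N and H had median levels of 10.1 and 10.8 FPKM, against 3.07 (50CSN) and 2.67 FPKM (50CSH). The 75C library had a median of 5.56 FPKM there. Of the 379, 340 were above 0 in all 4 libraries, with a median difference of 2.42-fold, and 24 of the 340 differed at least 4-fold. At the 96 higher loci the medians of N and H were 2.19 and 2.31 FPKM, those of 50CSN and 50CSH 9.55 and 7.66 FPKM, and that of 75C 5.29 FPKM. Of these, 84 were above 0 in all 4 libraries, with a median difference of 2.22-fold, and 4 of the 84 differed at least 4-fold. These loci were chosen for the difference, and the medians only describe its size.

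The 2 crosses were tested against the 2 purebreds with limma, in both directions, with Benjamini-Hochberg adjustment over the 13841 loci. Adjusted p was at most 0.05 at 6 loci (0.0433 percent), of which 5 were lower (0.0361 percent) and 1 was higher in the crosses (0.00722 percent). It was at most 0.1 at 1645 loci (11.9 percent), of which 1030 were lower (7.44 percent) and 615 higher (4.44 percent). Of the 1645, 311 differed at least 2-fold, 262 of them lower and 49 higher, and the median size was 1.56-fold. After quantile normalization 828 were lower and 733 higher by limma at the same threshold. An exact permutation of 2 against 2 libraries cannot go below p = 0.333. Of the 6 loci, 5 were listed at 0 in both libraries of one group. The exception was ENSBTAT00000052760 (chr18:57090258-57143002), whose locus holds 17 transcripts under 4 Ensembl IDs. N had 31.0 FPKM and H 29.2 FPKM, while 50CSN had 6.38 FPKM, 50CSH 7.18 FPKM and 75C 8.25 FPKM. The purebreds and the crosses did not overlap, and 7 of its 8 transcripts averaging 1 FPKM or more lay below both purebreds in both crosses. Its difference on the log2 scale was -2.0, standard error 0.10 (limma adjusted p = 0.0429). The call was lost after quantile normalization (limma adjusted p = 0.0524) and with a pseudocount of 0.1 (limma adjusted p = 0.0505). Without N no locus passed by limma, with 2700 at an unadjusted p of 0.05. Without H 14 passed, 1 of the 6 among them, and without either 50CSN or 50CSH 2 passed, none of the 6 among them.

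The 5 called loci listed at 0 were single transcripts, each in a span shared with other loci, and no fold is given for them. The lower ones passed the filter on the mean only through the purebreds and the higher one only through the crosses, and the group at 0 adds no spread to the test. Among loci above 0 in all 4 libraries limma called 0, with 3744 at an unadjusted p of 0.05. ENSBTAT00000060235 (chr12:14459918-14463902) had 65.1 FPKM in N and 44.1 in H, with a listed 0 in both crosses and in 75C (limma adjusted p = 0.0192). It was the call that remained without H. ENSBTAT00000059268 (chr25:28665726-28718409) had 30.4 FPKM in N and 38.6 in H, with a listed 0 in both crosses (limma adjusted p = 0.0192). In 75C that transcript was at 45.2 FPKM. ENSBTAT00000059745 (chr21:42746809-42845345) showed the same order, with N at 10.4, H at 12.8 and 75C at 14.1 FPKM and a listed 0 in both crosses (limma adjusted p = 0.0353). ENSBTAT00000059594, on unplaced sequence Un.004.2 from 1668325 to 1810570, had 21.0 FPKM in N and 26.3 in H, with a listed 0 in both crosses and in 75C (limma adjusted p = 0.0192). The called locus that was higher in the crosses was ENSBTAT00000059528 on chromosome 5, from 34136517 to 34155089. It was listed at 0 in N, H and 75C and stood at 12.2 (50CSN) and 13.5 FPKM (50CSH, limma adjusted p = 0.0203). In all, 11 loci were listed at 0 in both crosses and above 0 in both purebreds, and 6 were listed at 0 in both purebreds and above 0 in both crosses. All 17 had a single transcript. In 75C, 5 of the 11 and all 6 of the 6 were also listed at 0.

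Among the loci listed at 0 in both purebreds, the highest values in the crosses came from 2 loci that did not pass. ENSBTAT00000062717 (chr3:1123187-1302891) reached 514 (50CSN) and 139.6 FPKM (50CSH, limma adjusted p = 0.0673). ENSBTAT00000050785, on unplaced sequence Un.004.9153 from 2240 to 2485, reached 119 (50CSN) and 693 FPKM (50CSH, limma adjusted p = 0.0673). The crosses were thus 3-fold or more apart in both, in opposite orders. Both loci passed the filter on the mean only through the crosses. The authors' deposited table marks the second of these loci in 4 of its 4 comparisons of a cross with a purebred.

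Loci with values above 0 in all 4 libraries were ranked on each side. By mean deviation, among those with an Ensembl ID and both crosses beyond both purebreds, the 12 lowest differed from the mid-parent level by 4.84-fold to 12.8-fold in FPKM + 1. Their smallest limma adjusted p was 0.0673 and their largest 0.157, so none passed 0.05. The lowest was ENSBTAT00000010762, a single-transcript locus (chr18:52856391-52863158). N had 37.7 FPKM and H 12.6 FPKM, against 0.792 FPKM in 50CSN, 0.80 FPKM in 50CSH and 3.6 FPKM in 75C, so that the crosses deviated by -3.67 on the log2 scale (standard error 0.52). Both crosses stood at nearly one level there, while N and H lay about 3-fold apart. ENSBTAT00000005660 (chr10:88959748-88965461) had 172 FPKM in N and 56.4 in H, against 10.3 in 50CSN and 5.75 in 50CSH, and its 3 transcripts all lay below both purebreds in both crosses. ENSBTAT00000013284 (chr7:49142307-49146095) was next, where N reached 54.8, H 14.0, 50CSN 3.0 and 50CSH 1.58 FPKM. At these 3 loci N was the highest library and H the next. ENSBTAT00000027120 (chr11:2564216-2571672) kept that order, with N at 133 and H at 54.3 FPKM, 50CSN at 9.63 and 50CSH at 8.42 FPKM.

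Among the 12 lowest loci, N was above H at 6 and H above N at 6, so the low level in the crosses did not go with one purebred. ENSBTAT00000045499, a locus of 1 transcript (chr6:93913125-93913288), had close levels in the purebreds, 53.7 FPKM in N and 57.5 FPKM in H. Its levels in the crosses were 8.33 (50CSN) and 4.79 FPKM (50CSH), and in 75C it was at 46.5 FPKM. The crosses deviated by -2.94 on the log2 scale, standard error 0.25 (limma adjusted p = 0.0673). At ENSBTAT00000027080 (chr28:44474579-44521474) H was the highest library, where N reached 18.6, H 41.9, 50CSN 3.45 and 50CSH 4.12 FPKM. ENSBTAT00000015911 (chr19:27060170-27109667) had 44.3 FPKM in N and 159 in H, against 12.04 in 50CSN and 14.7 in 50CSH. At both of these loci the 3 transcripts averaging 1 FPKM or more lay below both purebreds in both crosses. ENSBTAT00000028567 (chr19:13849726-13863414) had 114 FPKM in N and 260.5 in H, against 27.8 in 50CSN and 37.1 in 50CSH. ENSBTAT00000062893 on chromosome 5, in the span from 10705353 to 10990081 that holds 10 loci, had 216 FPKM in N and 148 in H, against 31.0 in 50CSN and 34.7 in 50CSH, with 170.3 FPKM in 75C. In 8 of the 12 the crosses were within 1.5-fold of each other in FPKM. The purebreds were at least 2-fold apart in FPKM + 1 in 8 of the 12. The 75C library lay between the crosses and the purebreds at 9 of the 12. The authors' deposited table marks 7 of the 12 in at least 1 comparison of a cross with a purebred, and 4 of them in all 4. Of all 72812 transcripts it marks 54 to 65 in each of these comparisons. The 12 were the extremes of the same FPKM values, so the marks are no separate support.

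The 12 highest loci by the same ranking differed by 2.41-fold to 8.15-fold in FPKM + 1, with limma adjusted p from 0.0673 to 0.372, so none passed 0.05. The highest rank went to ENSBTAT00000027148 (chr15:28237704-28295247) with N at 0.137 and H at 0.162 FPKM, 50CSN at 21.9 and 50CSH at 2.84 FPKM. The next was ENSBTAT00000024387 (chrX:81984939-81986965) with N at 0.114 and H at 0.136 FPKM, 50CSN at 25.3 and 50CSH at 0.274 FPKM. At both of these loci 50CSN stood far above 50CSH. Both passed the filter on the mean only through the crosses, and at the second 50CSH was itself below 1 FPKM. Which side held the larger deviations depended on the pseudocount: at 0.1 in place of 1, ENSBTAT00000027148 deviated by 5.01 on the log2 scale and ENSBTAT00000010762, the lowest locus, by -4.61. At the other 10 the levels of the crosses were closer to each other. ENSBTAT00000016325 (chr24:50818021-50822849) had 6.30 FPKM in N and 7.98 in H, against 25.8 in 50CSN and 23.2 in 50CSH. ENSBTAT00000061414 (chr2:90525407-90895796) had 1.31 FPKM in N and 2.56 in H, against 8.40 in 50CSN and 9.38 in 50CSH. ENSBTAT00000055455 (chr6:224271-225110) had 21.1 FPKM in N and 12.1 in H, against 36.7 in 50CSN and 72.5 in 50CSH, so the crosses were further apart there than the purebreds.

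Loci of high abundance were among the higher ones. ENSBTAT00000006781, a locus of 1 transcript (chr20:35785937-35788537), had 863 FPKM in N and 779 in H, against 2284 in 50CSN and 1935 in 50CSH. The crosses deviated by 1.36 on the log2 scale, standard error 0.15 (limma adjusted p = 0.0673), and 75C was at 1201 FPKM. ENSBTAT00000040741 on chromosome 19, in a span from 8734352 to 8883076 that holds 14 loci, had 169 FPKM in N and 145 in H, against 420.3 in 50CSN and 451 in 50CSH. Inside that same span ENSBTAT00000049221 had 5.56 FPKM in N and 6.71 in H, with a listed 0 in both crosses (limma adjusted p = 0.0673), so loci of one span deviated in opposite directions. ENSBTAT00000054691 (chr5:10693769-10695843) had 72.7 FPKM in N and 64.7 in H, against 168 in 50CSN and 166 in 50CSH. It lies next to the span of ENSBTAT00000062893, which was lower in both crosses. Of the 12 higher loci, 6 had the crosses within 1.5-fold of each other in FPKM and 1 had the purebreds at least 2-fold apart in FPKM + 1. The 75C library lay between purebreds and crosses at 9 of the 12. The authors' deposited table marks 2 of the 12 in at least 1 comparison of a cross with a purebred. These 12 were also extremes of the same FPKM values, so the marks are no separate support.

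**Figure D3:**
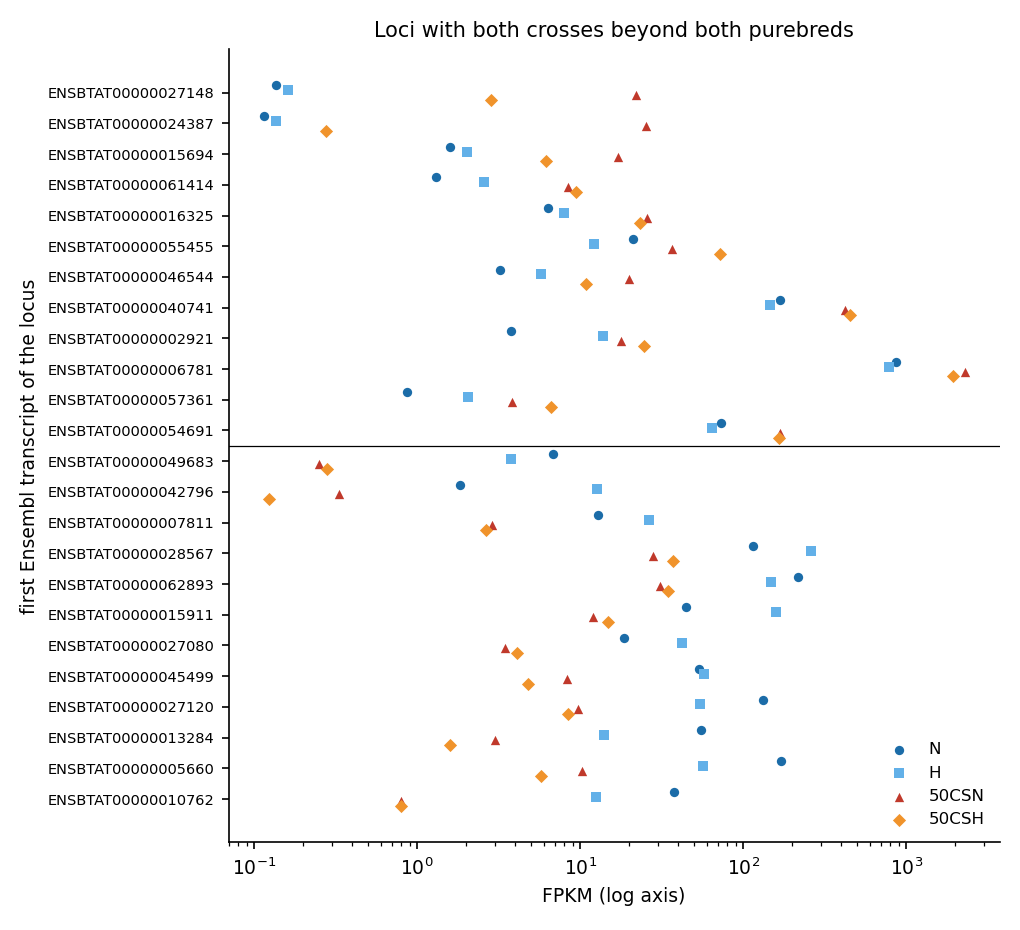
FPKM (log axis) in N, H, 50CSN and 50CSH at the 12 highest and 12 lowest ranked loci, 1 row for each locus and 1 symbol for each library. Below the horizontal line both crosses lie to the left of both purebreds, and above it both lie to the right. The gaps drawn are in FPKM and are wider at low loci than the folds of FPKM + 1 in the text.

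The place of each cross between the purebreds was then read where N and H differed. N and H were at least 2-fold apart at 470 loci (3.4 percent), with 202 higher in H and 268 higher in N, and 131 of the 470 had a listed 0 in some library. The 470 were chosen on the N and H values that also set the range, so the shares are a description with no test. The position of a cross was counted from 0 at the level of N to 1 at the level of H on the log2 scale, and positions from 0.25 to 0.75 were called intermediate. The median position was 0.52 in 50CSN and 0.53 in 50CSH, close to the mid-parent level. Yet the single loci were spread over the whole range. In 50CSN, 28.5 percent were intermediate, 16.2 percent near N, 21.9 percent near H, 17.7 percent beyond N and 15.7 percent beyond H. In 50CSH, 30.9 percent were intermediate, 14.5 percent near N, 16.8 percent near H, 17.2 percent beyond N and 20.6 percent beyond H. Both crosses were intermediate at 60 of the 470 loci and inside the range at 178. Of the 470, 65 (13.8 percent) had both crosses below the lower purebred and 23 (4.89 percent) had both above the higher one, against 32.6 and 26.9 percent of all kept loci, where the range between N and H was mostly narrower.

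At loci higher in either purebred, the median position of the crosses leaned toward the lower one. Where H was higher, it was 0.45 in 50CSN and 0.39 in 50CSH, and where N was higher, 0.61 in 50CSN and 0.66 in 50CSH. In 50CSN, 95 of the 470 loci lay below both purebreds and 62 above both, and in 50CSH 112 lay below and 66 above. The share of loci nearer to N than to H was 49.4 percent in 50CSN, which had a Holstein dam, and 47.2 percent in 50CSH, which had a native dam.

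**Figure D4:**
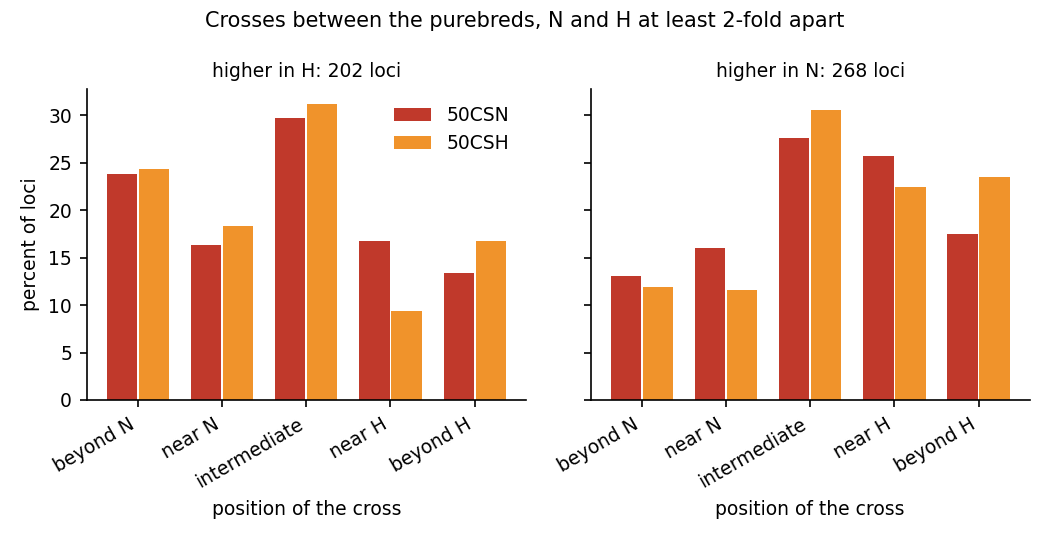
Percent of loci in 5 classes of position between N and H, for loci at least 2-fold higher in H (202, left) and in N (268, right), with a bar for each cross. Intermediate loci make up 27.6 to 31.2 percent, and the class beyond the lower purebred exceeds that beyond the higher one in both panels.

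Single loci with values in all 4 libraries showed each kind of position. ENSBTAT00000010182, on unplaced sequence Un.004.147 from 26441 to 156704, was intermediate, with N at 1.70 and H at 13.3 FPKM, 50CSN at 5.53 and 50CSH at 6.53 FPKM. ENSBTAT00000057256 (chr18:46718166-46737669) stayed at the level of N in both crosses, where N reached 1.65, H 37.2, 50CSN 2.22 and 50CSH 1.92 FPKM. Its positions were 0.074 in 50CSN and 0.037 in 50CSH, so the level of H was not seen in either cross. ENSBTAT00000053198 (chr9:91239245-91344892) was the mirror case, with N at 12.9 and H at 0.297 FPKM, 50CSN at 0.493 and 50CSH at 0.443 FPKM. Both crosses were at the level of H, and 75C was at 16.1 FPKM. ENSBTAT00000042796 (chr19:44675645-44743660) lay outside the range, with N at 1.82 and H at 12.7 FPKM, 50CSN at 0.33 and 50CSH at 0.123 FPKM.

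At other loci the crosses took different places. ENSBTAT00000045142 (chr11:51004921-51007327) had 11.3 FPKM in N and 103 in H, against 79.1 in 50CSN and 33.6 in 50CSH, with positions of 0.88 and 0.48. ENSBTAT00000010615 (chr4:109624151-109825320) had the opposite order of the crosses, where N reached 7.69, H 69.8, 50CSN 14.7 and 50CSH 34.5 FPKM. ENSBTAT00000037203 (chr14:64829665-64830135) had 20.3 FPKM in N and 0.187 in H, against 6.91 in 50CSN and 22.4 in 50CSH, so 50CSH stood at the level of N. ENSBTAT00000016618 (chr7:52366628-52393042) had 17.6 FPKM in N and 0.496 in H, against 2.85 in 50CSN and 9.70 in 50CSH. With 1 library for each cross, none of these differences between the crosses has a replicate check.

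The 2-fold deviations were not spread evenly over kinds of loci. Loci without an Ensembl ID made up 16 percent of those kept, 34 percent of the 379 lower loci and 44.8 percent of the 96 higher ones. Loci with a single transcript made up 27 percent of all, 49.6 percent of the lower and 68.8 percent of the higher. Spans shared by several loci were near the overall share of 36.4 percent, with 39.8 percent of the lower and 36.5 percent of the higher. Where a locus had several transcripts, those transcripts make up the sum that chose it, and their direction only describes it. In 191 lower loci of that kind, 351 of 407 transcripts averaging 1 FPKM or more (86.2 percent) lay below both purebreds in both crosses, and in 30 higher loci 38 of 47 (80.9 percent) lay above both.

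Level and transcript number went with the direction of small deviations. Loci were split by mean level into 5 bins of equal size. In the lowest bin, with a median of 1.63 FPKM, both crosses were below both purebreds at 33.4 percent and above at 15.6 percent, with a median deviation of -0.11. The highest bin, with a median of 65.4 FPKM, had 30.2 percent below and 38.6 percent above, and a median deviation of 0.04. Loci with 7 or more transcripts had a median deviation of -0.11, with 43.8 percent below and 16 percent above. Of these 1707 loci, 39 were 2-fold lower, or 2.28 percent against 2.74 percent of all kept loci. Against 0.694 percent of all kept loci, 0 were 2-fold higher. The share of 2-fold lower loci was thus not raised, and the lean was in the small deviations and in the lack of 2-fold higher loci. Loci with 2 to 3 transcripts had a median deviation of 0.01, with 30.1 percent below and 31.5 percent above. What part level and transcript number had in the deviations was not tested.

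The deviation also went with the number of annotated loci in 1 Mb around a locus, over the loci on chromosomes in 5 bins of similar size. In the bin with the fewest, 0 to 8 neighbours, the median deviation was 0.05, with 33.3 percent of loci above both purebreds in both crosses and 23.8 percent below. In the bin with the most, 32 to 84, it was -0.14, with 18.3 percent above and 47.3 percent below. From the fewest to the most neighbours the median moved from 0.05 to -0.18 in 50CSN and from 0.06 to -0.12 in 50CSH. The crosses share N and H in these deviations, so their likeness is no independent result. The 2-fold lower loci made up 1.79 percent of the first bin and 3.97 percent of the last, against 2.74 percent of all kept loci, and the 2-fold higher ones 0.596 and 0.689 percent, against 0.694 percent. The order was found within loci of 1 transcript, with medians of 0.08 and -0.09, and within loci of 4 or more, with 0.01 and -0.23. With the trend of each library removed by a lowess curve, 4062 loci lay below both purebreds in both crosses and 4076 above, against 4515 and 3721 before. At a limma adjusted p of 0.1, 726 were lower and 558 higher, against 1030 and 615 before. After the removal 354 loci were 2-fold lower and 120 were 2-fold higher. The count of 2-fold lower loci was thus nearly as large without the trend, which is itself small beside 2-fold.

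**Figure D5:**
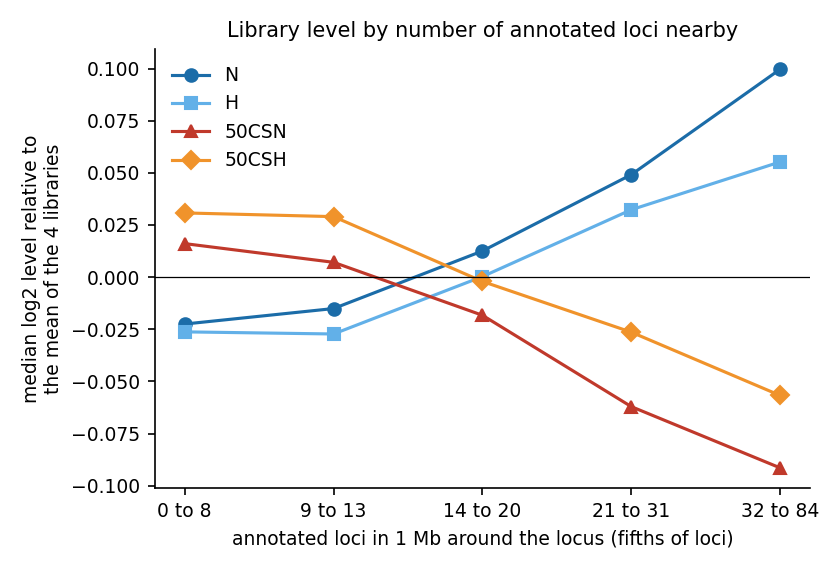
Median log2 level of each library relative to the mean of the 4 libraries, by the number of annotated loci in 1 Mb around a locus, in 5 bins of the loci on chromosomes. N and H go up to 0.10 and 0.06 in the last bin, while 50CSN and 50CSH go down to -0.09 and -0.06. On this relative scale a rise of some libraries is met by a fall of others.

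Chromosomes differed in the same direction at the extremes, though not in strict order of neighbours. Chromosome 22, with a median of 17 neighbours, was at -0.09, and chromosome 3, with 18, was at 0.02. The median deviation was lowest on chromosome 25, at -0.14 over 487 loci with a median of 36 annotated neighbours, then on chromosome 29 at -0.12 over 327 loci and on chromosome 19 at -0.10 over 765 loci. It was highest on chromosome 9, at 0.06 over 290 loci with a median of 8 neighbours, on chromosome 6 at 0.06 over 351 loci and on chromosome 1 at 0.06 over 516 loci. These 6 signs were kept under median-of-ratios scaling, quantile normalization and removal of the trend, where chromosome 25 was at -0.12, -0.08 and -0.06. With the trend removed, chromosome 29 was at -0.02 and chromosome 19 at -0.01, so most of their deviation went with the trend. Chromosomes 9, 6 and 1 were then at 0.04, 0.03 and 0.04. On chromosome 25, 47.4 percent of loci had both crosses below both purebreds, and on chromosome 9 19.7 percent did. Chromosome 19 held 34 of the 2-fold lower loci and chromosome 18 held 30, which is 4.44 and 3.96 percent of their loci against 2.74 percent of all kept loci. On the X chromosome 3 of 296 loci were 2-fold lower and 1 was 2-fold higher, or 1.01 and 0.338 percent, against 2.74 and 0.694 percent of all kept loci.

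Some 2-fold loci lay close together. Windows of 1 Mb with at least 4 lower or at least 3 higher loci were listed after the values were seen, and 9 of 2046 met this. The counts in such windows are high by that choice, and over all kept loci 2.74 percent were 2-fold lower, 0.694 percent were 2-fold higher and 32.6 percent had both crosses below both purebreds. In the window of chromosome 18 from 63 to 64 Mb, 5 of the 28 loci were 2-fold lower or more and 19 of 28 lay below both purebreds in both crosses, with a median deviation of -0.55 and no 2-fold higher locus. The most abundant of the 5, ENSBTAT00000021152 from 63586727 to 63600908, had 48.8 FPKM in N and 54.3 in H, against 22.2 in 50CSN and 22.5 in 50CSH. Its limma adjusted p was 0.0673. The rest of the 5 reached at most 7.15 FPKM, with limma adjusted p from 0.113 to 0.171. In the first window of chromosome 14, from 0 to 1 Mb, 5 of the 44 loci were 2-fold lower or more and 33 of 44 lay below both purebreds, with a median deviation of -0.37. There ENSBTAT00000037418, in the span from 486680 to 536443, had 19.0 FPKM in N and 17.2 in H, against 7.89 in 50CSN and 9.13 in 50CSH. The window of chromosome 19 from 58 to 59 Mb held 5 such loci among 22. ENSBTAT00000010966 of that window, from 58640585 to 58653184, had 33.8 FPKM in N and 50.2 in H, against 11.2 in 50CSN and 14.6 in 50CSH. None of the 2-fold loci of these 3 windows was listed at 0 in the 4 libraries. The window of chromosome 19 from 8 to 9 Mb held 5 lower loci and 1 higher among 17, with a median deviation of -0.02. Of its 2-fold loci, 3 had a listed 0, as had 3 on chromosome 19 from 44 to 45 Mb and 2 on chromosome 23 from 28 to 29 Mb.

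The windows listed for their higher loci lay side by side on chromosome 10. Over that whole chromosome 7 of 618 loci (1.13 percent) were 2-fold higher, against 0.694 percent of all kept loci and 2.14 percent on chromosome 20. The window from 23 to 24 Mb held 3 loci that were 2-fold higher or more among 20, and 0 lower ones, with a median deviation of 0.51, and the next window, from 24 to 25 Mb, held 3 higher and 1 lower among 19, with a median of 0.43. All 6 higher loci had a single transcript, with limma adjusted p from 0.0673 to 0.251. The locus from 23247195 to 23247774 had 2.22 FPKM in N and 3.10 in H, against 8.02 in 50CSN and 7.68 in 50CSH. In 75C it was at 18.2 FPKM, above both crosses. ENSBTAT00000002921, from 23501758 to 23502470, had 3.75 FPKM in N and 13.7 in H, against 17.7 in 50CSN and 24.5 in 50CSH, so H lay nearer to the crosses than to N. The 75C library was at 30.9 FPKM there. Cattle carry the T cell receptor alpha and delta genes on chromosome 10, and membership of these loci cannot be read from the IDs.

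The authors' deposited table gives its own calls per transcript and pair of libraries. In that deposited table of the authors, 54 transcripts are marked between 50CSN and N, 42 of them lower in the cross, and 58 between 50CSN and H, 39 of them lower. For 50CSH the authors' deposited table marks 57 against N, 46 of them lower, and 65 against H, 49 of them lower. These 4 comparisons share their libraries, so they do not count as separate evidence for the direction. Between 13 and 20 of the transcripts marked in each comparison of the authors' deposited table had a listed 0 in either library of the pair.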

How the data were processed

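The authors deposited FPKM values per assembled transcript in a table of pairwise comparisons. The submitters' processing notes list Cufflinks 2.2.1.0 beside TopHat2 2.0.9. Build and annotation: not given in the sources used here, like the settings. That table holds a p-value and a q-value of the authors per transcript and pair of libraries, per the file headers. A pooled table that includes 75C was not used here. FPKM was taken once per transcript for N, H, 50CSN and 50CSH, where it was identical in every comparison, and summed over the loci of the assembly. FPKM estimates divide reads between transcripts and near-identical loci by a model, so neighbouring or overlapping loci can trade reads, and 19 kept loci hold a transcript whose comparison among the 4 libraries is marked as failed. The library preparation names no step that marks the strand, so antisense neighbours cannot be told apart. Loci averaging 1 FPKM or more were compared on log2(FPKM + 1), using limma 3.58.1 (R 4.3.3) and its trend option, 50CSN and 50CSH against N and H, and Benjamini-Hochberg adjustment. The script was tested on simulated data. Counts at 2-fold have no test. Scripts ran in Python 3.11.15, with matplotlib 3.10.9 for plots, statsmodels 0.14.6 for lowess, and scipy 1.17.1, numpy 2.4.6 and pandas 2.3.3 for tables. A lowess fraction of 0.3 removed the trend with annotated neighbours. Coordinates are those of the deposited table, counted from 1.

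The named loci were those past an adjusted p of 0.05, the 12 highest and 12 lowest by mean deviation with an Ensembl ID, values above 0 in all 4 libraries and no overlap between groups, up to 5 in each direction among loci listed at 0 in one group, and the 6 with the largest difference in each direction between H and N. They are printed in part, and loci of windows were added after their values were seen. The comparison and the lists were chosen with earlier results of these data known. Lists of immune and leukocyte genes could not be used, since no gene symbol was matched. Alternatives were the pseudocount, filters, scalings, values per transcript, limma settings, another mid-parent scale and leaving out each library.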

Additional observations from a re-analysis of the deposited data

Results flagged for a closer look

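One locus was picked out because the crosses deviated in opposite directions from the mid-parent level, each at least 2-fold, a difference that was not tested. ENSBTAT00000044482 (chr2:97468246-97470058) reached 179.9 FPKM in 50CSN and 0.819 FPKM in 50CSH, while N had 133, H 10.5 and 75C 12.8 FPKM. Its log2 deviation was 2.2 in 50CSN and -4.43 in 50CSH, so 50CSN stood above N and 50CSH below H. The authors' deposited table marks it in 1 of its 4 comparisons of a cross with a purebred.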

How the results depend on the processing

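The excess of lower over higher loci at 2-fold held under every alternative run, while the number past an adjusted p of 0.05 by limma, 6 in the report, rested on the settings and on single libraries. That number was 3 with a pseudocount of 0.1, 26 with values per transcript, 11 with robust fitting and 1645 at an adjusted p of 0.1. It was 0 without a filter on low values, with 4472 at an unadjusted p of 0.05, and 0 among loci above 0 in all 4 libraries, with 3744. With one library left out it ran from 0 to 14, where the group with 1 library is assumed to vary like the other. Median-of-ratios scaling and removal of the trend with annotated neighbours each left all 6, and quantile normalization left 5 of them. The 2-fold lower and 2-fold higher loci numbered 665 and 186 with a pseudocount of 0.1, 226 and 54 with a mean of at least 5 FPKM, and 1588 and 821 per transcript. Without single libraries the lower ones ran from 434 to 529 and the higher ones from 153 to 199. Those 2-fold from the mid-parent level with a pseudocount of 0.1 were 818 below and 396 above in 50CSN, and 923 below and 322 above in 50CSH. With a mean of at least 5 FPKM they were 271 and 130 in 50CSN, and 311 and 100 in 50CSH. With the mid-parent level taken from the mean FPKM they were 524 and 186 in 50CSN, and 587 and 129 in 50CSH. The intermediate share of 50CSH was 26.3 percent with a pseudocount of 0.1, 37.5 percent for loci above 0 in all 4 libraries and 26.7 percent for purebreds 4-fold apart. The median deviation with the fewest annotated neighbours was 0.0756 after median-of-ratios scaling, 0.1148 after quantile normalization and 0.0553 with a window of 5 Mb, and from 0.0444 to 0.0597 without single libraries. With the most neighbours it was -0.0884 after quantile normalization. Where a setting tests other loci or fewer libraries, the count moves with that, and otherwise the cause was not tested. None of these values changed sign, while the balance of small deviations did with the scaling, as the report gives. The labels give no replicate numbers, so no paired analysis was possible because nothing ties a cross to a purebred library. Read depth is not given, so no counting error can be attached to low loci.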
